A study of Mus musculus with 4 samples.

Results

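The cells described here were germ cells with transcripts of *Dmrtb1* and few transcripts of mitotic genes, a pattern used to mark intermediate and type B spermatogonia in testes at postnatal day 15. Members were barcodes with more than 1000 detected genes, less than 10% mitochondrial unique molecular identifiers (UMIs, the counted transcripts), at least 3 UMIs of the germ-cell genes *Ddx4* and *Dazl*, and at least 3 UMIs of *Dmrtb1*. They also had *Stra8* under 5 per 10000 UMIs, at most 1 UMI of *Gfra1* and *Ret*, and a sum of *Plk1*, *Ccnb1*, *Ube2c* and *Cdc20* under 5 per 10000 UMIs. Of 29592 barcodes within the limits on genes and mitochondrial counts, 1373 met this rule. The wild-type libraries gave 409 and 425 members (replicates 1 and 2) and the *Meioc*-null libraries gave 248 and 291. All values below are in that order of libraries.

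Intermediate and type B spermatogonia are the last differentiating spermatogonia before meiosis. They depend on the receptor tyrosine kinase KIT, pass through their final mitotic divisions, and give rise to preleptotene spermatocytes, in which retinoic acid induces *Stra8* and meiotic DNA replication begins. *Dmrtb1* (also known as *Dmrt6*) encodes a DM-domain transcription factor of these late spermatogonia, and *Esx1* and *Rhox13* are X-linked homeobox genes expressed in germ cells. The product of *Meioc*, found in germ cells, forms a complex with YTHDC2 and RBM46, which bind RNA, at the time of meiotic entry.

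Transcripts of single cells were captured at their 3′ ends from 2 wild-type and 2 *Meioc*-null mice of the C57BL/6N strain, with 1 testis taken per pup. The *Meioc*-null mice carried the tm1.1Dpc allele in the homozygous state. Controls and mutants alike carried a heterozygous *Hspa2* tm1Dix allele and a homozygous, unrecombined *ROSA26-tdTomato* reporter. Each of the 2 batches held littermates, 1 wild-type and 1 *Meioc*-null, so every p-value rests on 2 mice against 2. The interstitium was discarded during dissociation. The libraries held 11986 to 16486 barcodes and 158291903 to 190455307 UMIs, and pairs of libraries shared 12 to 16 barcodes within the limits on genes and mitochondrial counts. *Meioc* transcripts are counted at the 3′ end in both genotypes and so give no check of the genotype labels.

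The members did not all match the name of this stage. A group of wild-type members carried transcripts of pachytene spermatocytes, which are cells in the long middle stage of meiotic prophase. The summed UMIs of 8 pachytene markers (*Piwil1*, *Pou5f2*, *Ccna1*, *Ldhc*, *Tbpl1*, *Spag6*, *Tesmin* and *Mns1*) reached 20 or more per 10000 UMIs in 69 and 41 wild-type members and in 0 and 0 *Meioc*-null members. Sums under 5 per 10000 were found in 307 and 365 wild-type members and in 242 and 287 *Meioc*-null members. Sums from 5 to under 10 were found in 33 and 12 wild-type members and in 6 and 4 *Meioc*-null members, and sums from 10 to under 20 in 0 and 7 wild-type members and in 0 and 0 *Meioc*-null members. Both wild-type libraries thus held a group of cells with high sums that *Meioc*-null lacked. A gap from 10 to under 20 set this group apart in wild-type replicate 1 but not in replicate 2.

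**Figure D1:**
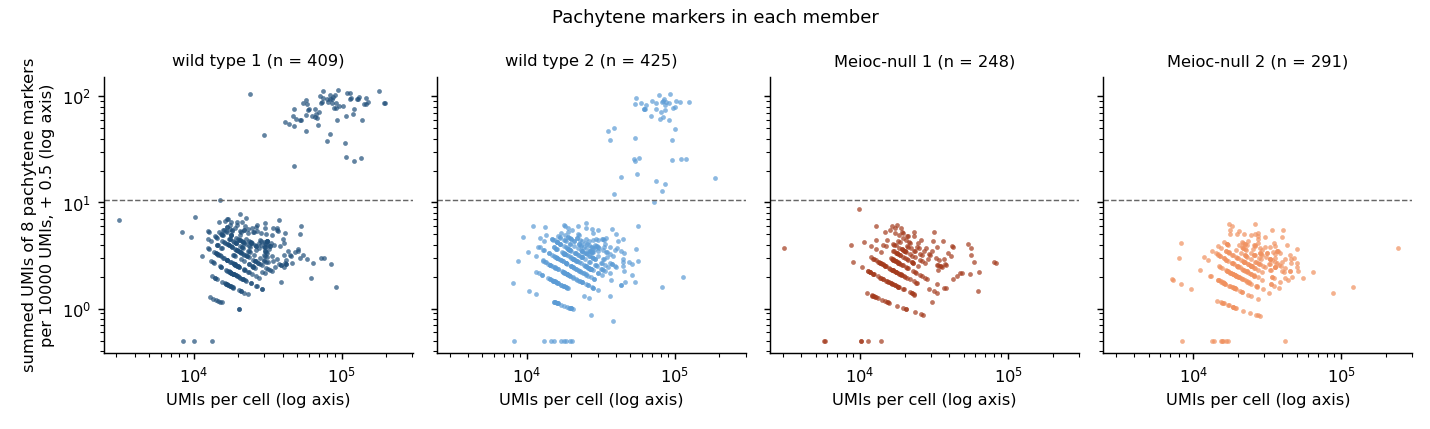
Summed UMIs of 8 pachytene markers per 10000 UMIs (vertical, log axis, 0.5 added) against the UMIs of the cell (horizontal, log axis), 1 panel per library and 1 point per member; the dashed line lies at a sum of 10. A second cloud of deep cells with high pachytene sums is present in both wild-type panels (69 and 41 members at 20 or more) and in neither *Meioc*-null panel.

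Members were called spermatocyte-marker cells when the pachytene sum was 10 or more per 10000 UMIs or the sum of *Prdm9*, *Gml*, *Meiob*, *Psma8* and *Dmc1*, genes of early meiotic prophase, was 5 or more. These were 73 of 409 and 56 of 425 wild-type members (17.8%, exact 95% interval 14.3 to 21.9, and 13.2%, 10.1 to 16.8). In *Meioc*-null they were 0 of 248 (0%, exact 95% interval 0 to 1.48) and 2 of 291 (0.687%, 0.0833 to 2.46). These intervals cover counting error only. Both sums were high in 68 and 46 of the wild-type cells, whereas the 2 *Meioc*-null cells met the limit by the sum of 5 genes alone.

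The wild-type spermatocyte-marker cells were deeper and had a lower mitochondrial share than the other members. They held a median of 80635 and 74257 UMIs, against 20706 and 20623 UMIs in the remaining wild-type members and 18770 and 22442 UMIs in the remaining *Meioc*-null members. Their median mitochondrial share was 3.23 and 3.79%, against 6.31 and 6.05% in the remaining wild-type and 6.46 and 6.48% in the remaining *Meioc*-null members. The 2 such cells of *Meioc*-null 2 had a median of 24506 UMIs and a mitochondrial share of 7.30%. Spermatocyte-marker cells held 43.6 and 32.1% of all UMIs of wild-type members and 0 and 0.652% of those of *Meioc*-null members. Scrublet scores barcodes that resemble 2 cells. The highest scores were marked for removal, at a share of 0.8% for each 1000 barcodes of the library rather than by Scrublet's own threshold. In wild type they covered 690 of 6334 and 989 of 8494 barcodes within the limits, and 31 of 336 and 27 of 369 remaining members. Of the wild-type spermatocyte-marker cells they covered 8 of 73 and 40 of 56. Whether these were doublets or deep spermatocytes with a few *Dmrtb1* transcripts was not tested.

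The depth of a cell bears on a limit counted in UMIs. Germ barcodes with a pachytene sum of 10 or more numbered 419 and 585 in wild type, with median depths of 30146 and 28218 UMIs, and 12 and 9 in *Meioc*-null, with median depths of 2863 and 1946 UMIs. At least 3 UMIs of *Dmrtb1* were found in 22.4 and 13.8% of these wild-type barcodes and in none of the 12 and 9 *Meioc*-null barcodes. In counts per 1000000 UMIs (CPM), *Dmrtb1* stood at 54.4 and 35.9 in all such wild-type barcodes and at 98.5 and 89.9 in the spermatocyte-marker members, against 191 and 169.9 in the remaining wild-type members. In a gate of somatic cells (no *Ddx4* or *Dazl* UMI and at least 5 UMIs of Sertoli, Leydig and myoid markers) it stood at 4.97 and 1.58.

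The remaining 1242 members (336 and 369 wild-type, 248 and 289 *Meioc*-null) carried *Kit*, *Esx1* and *Rhox13*, as did the germ cells most like them. The summed level of these 3 markers was 549 and 496 CPM (wild type) against 522 and 472 CPM (*Meioc*-null) in the remaining members, 534 and 464 CPM (wild type) against 549 and 501 CPM (*Meioc*-null) in *Stra8*-high germ cells (*Stra8* at 5 or more per 10000 UMIs), and 643 and 518 CPM (wild type) against 604 and 559 CPM (*Meioc*-null) in dividing cells without spermatocyte markers (the same rule, but a mitotic sum of 5 or more per 10000 UMIs). At 5000 UMIs per cell *Rhox13* was found in 72.1, 66.6, 71.5 and 71.0% of *Stra8*-high cells, above its shares in the remaining members given below. *Kit* was found in 45.8, 48.8, 42.3 and 37.8% of *Stra8*-high cells and *Esx1* in 43.6, 30.8, 50.9 and 44.1%, both below their shares in the remaining members. The 3 markers thus did not set the members apart from *Stra8*-high cells in a single direction. In dividing cells their sum was above that of the members in every library. At 5000 UMIs *Esx1* was found in 68.0, 52.5, 60.8 and 56.7% of dividing cells and *Rhox13* in 68.2, 62.3, 64.1 and 65.1%. Both were above their shares in the remaining members, while *Kit*, at 49.0, 55.9, 57.7 and 54.4%, lay below in wild type and above in *Meioc*-null. In the remaining members *Kit*, the receptor of stem cell factor, had a UMI in 92.6 and 94.9% of wild-type cells and 93.1 and 93.8% of *Meioc*-null cells. Among the wild-type spermatocyte-marker cells this share was 20.5 and 33.9%, and in the somatic gate, at median depths of 8744, 9136, 7670 and 10349 UMIs, it was 7.34 and 8.65% of wild-type cells and 6.08 and 9.71% of *Meioc*-null cells. After every cell was thinned to 5000 UMIs, *Kit* was found in 50.2 and 57.4% of wild-type cells and 55.2 and 53.4% of *Meioc*-null cells, and in the somatic gate in 4.82 and 6.52% of wild-type cells and 4.02 and 5.64% of *Meioc*-null cells. The remaining members thus stood far above the somatic background in all 4 libraries, and the spermatocyte-marker cells did not: their thinned shares were 4.08 and 9.93%.

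The homeobox genes were also more frequent in the remaining members than in either of these. *Esx1* had a UMI in 91.7 and 87.3% of wild-type cells and 86.7 and 88.6% of *Meioc*-null cells, and in 31.5 and 32.1% of the wild-type spermatocyte-marker cells. At 5000 UMIs the *Esx1* shares were 59.6, 48.7, 54.2 and 50.5% in the remaining members and 1.32, 0.757, 4.20 and 1.24% in the somatic gate, and 4.29 and 8.30% in the wild-type spermatocyte-marker cells, above the somatic gate of the same libraries. *Rhox13* had a UMI in 97.6 and 95.9% of wild-type cells and 95.6 and 97.6% of *Meioc*-null cells, and in 28.8 and 44.6% of the wild-type spermatocyte-marker cells. Its thinned shares were 62.9, 59.5, 59.8 and 60.7% against 2.10, 1.05, 3.40 and 1.19% in the somatic gate, and 3.94 and 11.6% in the wild-type spermatocyte-marker cells.

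Counts were then summed over the cells of a population in each library. *Kit* (chromosome 5, 75574916 to 75656722, on GRCm38) stood at 146 and 180.2 CPM (wild type) against 174 and 158 CPM (*Meioc*-null) in the remaining members, and the genotypes overlapped. *Esx1* (chromosome X, 137115397 to 137122083) stood at 199 and 136 CPM (wild type) against 165 and 138 CPM (*Meioc*-null), again with overlap. *Rhox13* (chromosome X, 38121219 to 38129967) stood at 204 and 179 CPM (wild type) against 183 and 175 CPM (*Meioc*-null), with overlapping ranges as well. In the wild-type spermatocyte-marker cells *Kit* was at 5.61 and 16.7 CPM, *Esx1* at 6.73 and 13.5 CPM and *Rhox13* at 6.25 and 20.7 CPM.

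**Figure D2:**
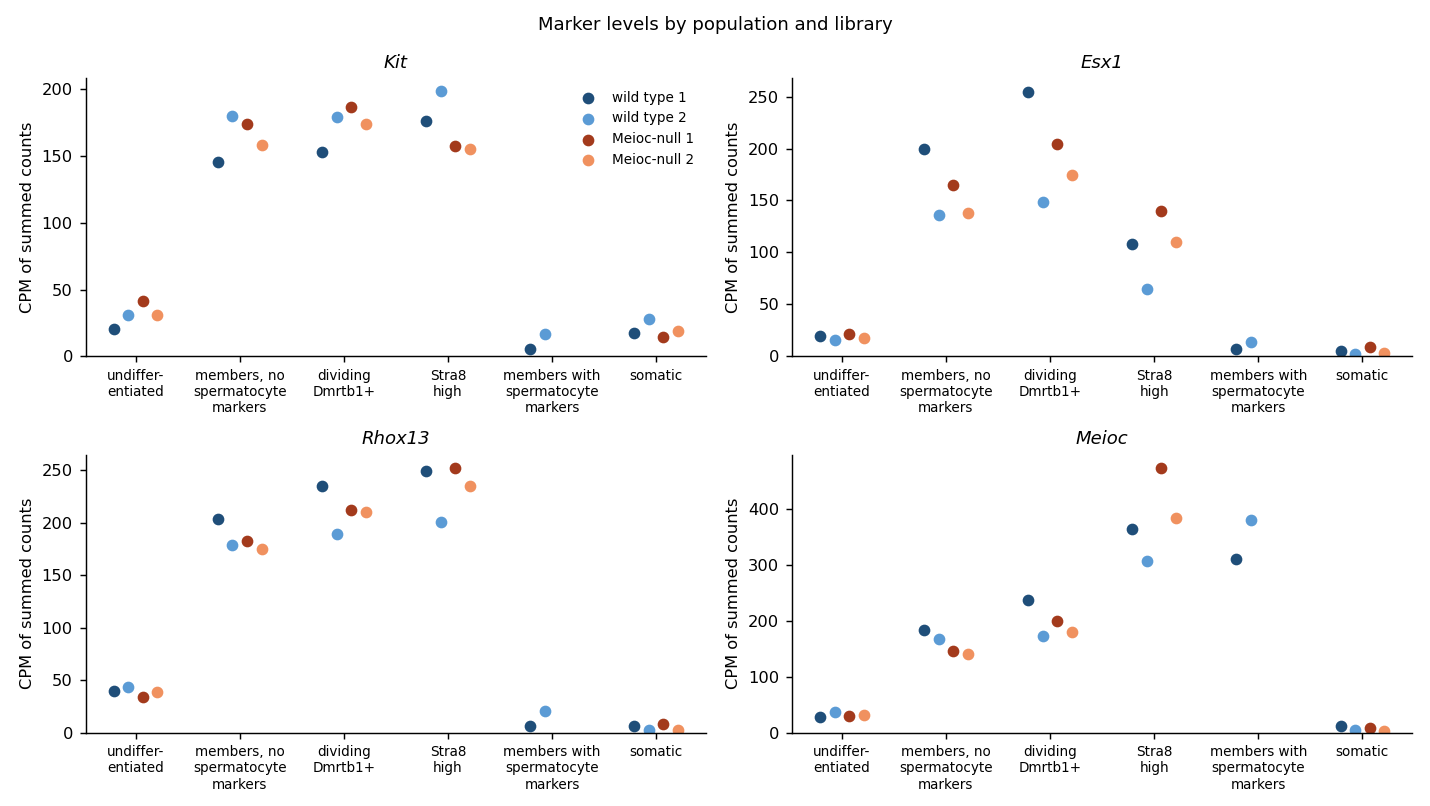
CPM of summed counts (vertical, from 0) of *Kit*, *Esx1*, *Rhox13* and *Meioc* in 6 populations of cells, 1 point per library. Members without spermatocyte markers carried *Kit* at 146 to 180.2 CPM, while members with those markers (wild type only, since *Meioc*-null libraries had 0 and 2 such cells) were at 5.61 and 16.7 CPM.

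X-linked genes gave a further description of the same split. Pachytene spermatocytes are known to silence the sex chromosomes. The summed level of 14 X-linked spermatogonial genes was 2082 and 2096 CPM (wild type) against 2106 and 2002 CPM (*Meioc*-null) in the remaining members, and 88.4 and 257 CPM in the wild-type spermatocyte-marker cells. For 8 Y-linked genes the sums were 364 and 348 CPM (wild type) against 385 and 371 CPM (*Meioc*-null), and 20.8 and 65.7 CPM in the wild-type spermatocyte-marker cells. The sum of 26 S-phase genes was 4900.3 and 4702 CPM (wild type) against 4922 and 4449 CPM (*Meioc*-null) in the remaining members, whose ranges overlapped, and 1605 and 1636 CPM in the wild-type spermatocyte-marker cells.

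Markers of other testicular cells were found in the remaining members, unequally among libraries. The summed level of 6 Sertoli markers was 297 and 210 CPM (wild type) against 154 and 407 CPM (*Meioc*-null), where the somatic gate held 863 to 1403 CPM. For 5 peritubular myoid markers the sums were 74.8 and 198 CPM (wild type) against 241 and 483 CPM (*Meioc*-null), lower in wild type in both batches, where the somatic gate held 10652 to 13224 CPM. No myoid UMI was found in 56.5, 77.0, 56.0 and 69.2% of remaining members, and the 90th percentile was 0.701, 0.512, 0.973 and 0.585 per 10000 UMIs, so a minority of cells carried these sums. The deepest remaining member of *Meioc*-null 2 held 243359 UMIs. Leydig markers summed to 30.5 and 17.1 CPM (wild type) against 16.0 and 32.7 CPM (*Meioc*-null), endothelial markers to 40.1 and 39.4 CPM (wild type) against 57.5 and 42.8 CPM (*Meioc*-null), and macrophage markers to 1.98 and 0.583 CPM (wild type) against 2.21 and 7.90 CPM (*Meioc*-null). The part of these transcripts in the results below was not tested beyond the values given.

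The first question was whether transcript levels differed between the genotypes. Over all 1373 members, 2378 of 8114 genes tested (29.3%) passed the threshold (edgeR quasi-likelihood test on library sums, adjusted p under 0.05 and absolute log2 fold change over 0.1). Of these 1611 (19.9%) were higher and 767 (9.45%) were lower in wild type, and without the genes of the rule 1609 and 766 of 8106 were. Of the 7671 of them also tested without spermatocyte-marker cells, 1318 were higher and 765 lower. The others passed the limit on detection through wild-type spermatocyte-marker cells. The excess of higher genes over all members, and the list shares set beside it below, are thus no test of direction. When only cells with the sum of 5 early genes at 5 or more were left out, 13 of 7711 genes (0.169%) passed, all higher in wild type. Without any spermatocyte-marker cells, 2 of 7698 genes (0.026%) passed, both higher in wild type. The same comparison by DESeq2 gave 1879 genes over all members and 3 genes without the spermatocyte-marker cells. The median log2 fold change of all genes tested was −0.03 and 0.01. With the littermate pair as a block in the fit, the counts were 3358 of 8114 (41.4%) and 27 of 7698 (0.351%). In the set of 7698 genes, 132 had an unadjusted p under 0.05 by edgeR without the block and 375 with it. The 132 were 1.71% of those tested, below the share that a limit of 0.05 gives with no difference. A gene or list that did not pass there is thus not shown to be equal between the genotypes.

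Genes tested in both sets numbered 7671. Of the 2083 that passed over all members, 2022 had a log2 fold change of under 0.5 times that value without the spermatocyte-marker cells. The median of those higher in wild type went from 0.88 to 0.07, and the median of those lower in wild type went from −0.59 to −0.15. The median standard error was 0.178 over all members and 0.155 without the spermatocyte-marker cells. In the latter set 99.3% of genes had an absolute log2 fold change under 0.5. The 2 libraries of each genotype did not overlap for 74.1% of the genes over all members and for 22.7% without the spermatocyte-marker cells.

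**Figure D3:**
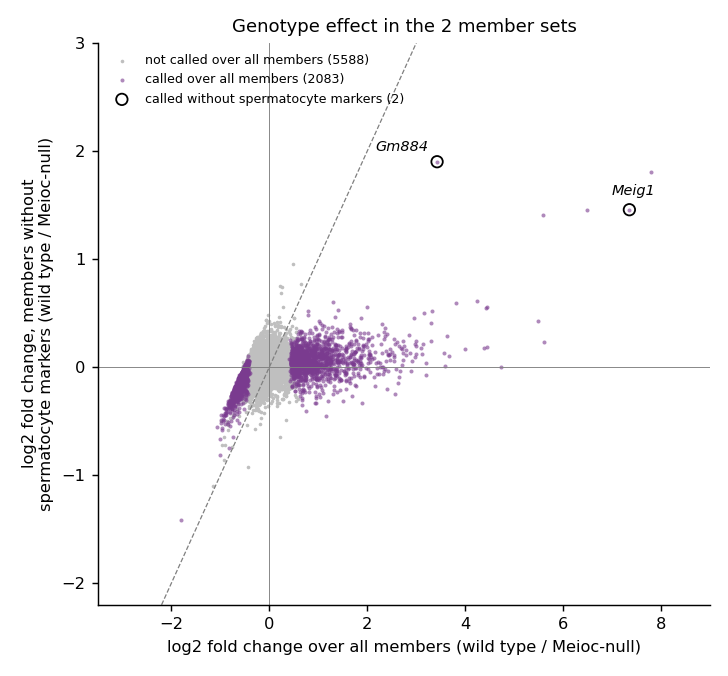
Log2 fold change (wild type over *Meioc*-null) of 7671 genes over all members (horizontal) and in members without spermatocyte markers (vertical), 1 point per gene, with the 2 genes called in the latter set circled. Most genes called over all members lie near 0 on the vertical axis, and the dashed line marks equal values.

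The 12 genes with the smallest p among those higher in wild type over all members were *Fabp9*, *Meig1*, *Gm11837*, *Cox8c*, *Dnah8*, *Hsf5*, *Phf7*, *Fam229b*, *Arid2*, *AA467197*, *Wfdc15a* and *Spdya*. *Fabp9*, a fatty acid-binding protein of spermatocytes and later germ cells, was at 1491 and 1036 CPM (wild type) against 2.95 and 3.33 CPM (*Meioc*-null) over all members. Its log2 fold change was 8.78 (SE 0.31), but it entered the test through wild-type cells, so its direction is no test. Without the spermatocyte-marker cells *Fabp9* was at 14.8 and 11.2 CPM (wild type) against 2.95 and 2.41 CPM (*Meioc*-null) and was not tested, because too few cells carried it. The somatic gate, which should lack this transcript, held 24.4 and 6.76 CPM (wild type) against 0.136 and 0.0781 CPM (*Meioc*-null). *Cox8c*, a testis subunit of cytochrome c oxidase, was at 1234 and 786 CPM (wild type) against 22.8 and 23.0 CPM (*Meioc*-null) over all members, with a log2 fold change of 5.61 (SE 0.26, edgeR adjusted p = 5.8e-09). Its level without those cells was 29.8 and 22.9 CPM (wild type) against 22.8 and 22.5 CPM (*Meioc*-null). The dynein heavy chain gene *Dnah8*, of the sperm tail, stood at 345 and 271 CPM (wild type) against 6.82 and 3.33 CPM (*Meioc*-null) over all members and at 9.40 and 5.25 CPM (wild type) against 6.82 and 3.21 CPM (*Meioc*-null) without those cells.

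*Hsf5*, a heat shock factor of the male germline, was at 139 and 97.3 CPM (wild type) against 6.08 and 4.52 CPM (*Meioc*-null) over all members, with a log2 fold change of 4.65 (SE 0.24). After removal of the spermatocyte-marker cells it was at 7.91 and 7.12 CPM (wild type) against 6.08 and 4.15 CPM (*Meioc*-null). *Phf7*, a histone reader of the male germline, was at 864 and 577 CPM (wild type) against 38.9 and 35.0 CPM (*Meioc*-null) over all members, and at 39.1 and 42.6 CPM (wild type) against 38.9 and 34.5 CPM (*Meioc*-null) after removal, where its log2 fold change was 0.18 (SE 0.16). There the wild-type libraries of *Cox8c*, *Hsf5* and *Phf7* lay just above those of *Meioc*-null, and those of *Dnah8* overlapped. At these levels too few cells carried *Hsf5* and *Dnah8* for a test, and *Cox8c* and *Phf7* were not among the genes that passed. *Hsf5* and *Dnah8* thus entered the test over all members through wild-type cells, so their direction there is no test.

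The 12 genes with the smallest p among those lower in wild type over all members were *Ptms*, *Adam10*, *Ndrg1*, *Cox7b*, *Ppdpf*, *Igf1r*, *Zmynd8*, *Tmem50a*, *3110009E18Rik*, *Msrb1*, *Galnt1* and *Ro60*. *Adam10*, a membrane protease, was at 34.7 and 39.3 CPM (wild type) against 74.6 and 70.9 CPM (*Meioc*-null) over all members, with a log2 fold change of −0.83 (SE 0.16, edgeR adjusted p = 0.0011). Without the spermatocyte-marker cells it was at 56.3 and 54.6 CPM (wild type) against 74.6 and 71.0 CPM (*Meioc*-null), with a log2 fold change of −0.37 (SE 0.13) that did not pass. *Igf1r*, the receptor of insulin-like growth factor 1, was at 30.5 and 32.7 CPM (wild type) against 67.6 and 56.1 CPM (*Meioc*-null) over all members, with a log2 fold change of −0.81 (SE 0.16, edgeR adjusted p = 0.00162). Its level in the remaining members was 50.6 and 43.3 CPM (wild type) against 67.6 and 56.2 CPM (*Meioc*-null), with no overlap of the genotypes, and its log2 fold change was −0.37 (SE 0.14). The other lower genes had the same sign and smaller values in the remaining members, from −0.21 (*Tmem50a*) to −0.81 (*3110009E18Rik*).

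In the remaining members the genes that passed were *Gm884* and *Meig1*. *Gm884* (ENSMUSG00000034239, chromosome 11, 103534577 to 103621140, minus strand) was at 15.8 and 14.8 CPM (wild type) against 5.34 and 3.21 CPM (*Meioc*-null), and every wild-type library lay above both *Meioc*-null libraries. Its log2 fold change was 1.90 (SE 0.25, edgeR adjusted p = 6.2e-04), and it was 1.55 and 2.18 within batches 1 and 2. The somatic gate held 2.67 and 1.06 CPM (wild type) against 0.953 and 0.625 CPM (*Meioc*-null), below the members of every library. *Gm884* was also at 39.5 and 41.0 CPM (wild type) against 21.5 and 24.2 CPM (*Meioc*-null) in undifferentiated germ cells (at least 2 UMIs of *Gfra1* and *Ret*) and at 22.1 and 23.0 CPM (wild type) against 4.78 and 5.90 CPM (*Meioc*-null) in *Stra8*-high germ cells, so the order of the genotypes was the same in both of these gates.

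*Gm884* lies 0.852 Mb from *Meioc* (chromosome 11, 102663716 to 102682237), so a difference set by the *Meioc* allele and one set by the chromosome segment that carries it cannot be told apart for this gene. Of the 100 genes other than *Meioc* tested within 5 Mb of it, *Gm884* was the 1 gene that passed in the remaining members. Their median log2 fold change was 0.01, and 2 of them (2.00%) had an unadjusted p under 0.05, against 1.71% of all genes tested.

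*Meig1* (ENSMUSG00000026650, chromosome 2, 3409043 to 3422648, minus strand), whose protein is needed for the sperm tail, was at 31.5 and 23.1 CPM (wild type) against 9.40 and 10.6 CPM (*Meioc*-null) in the remaining members, with no overlap. Its log2 fold change was 1.45 (SE 0.21, edgeR adjusted p = 0.00134). The somatic gate held *Meig1* at 55.6 and 28.3 CPM (wild type) against 19.6 and 11.2 CPM (*Meioc*-null), above the members of the same library, and the wild-type spermatocyte-marker cells held it at 3977 and 3862 CPM. Whether somatic cells carry this transcript themselves or hold it from other cells was not tested. *Rsph1*, a radial spoke protein of the sperm tail, had the same order of populations, at 23.1 and 13.3 CPM (wild type) against 3.87 and 6.29 CPM (*Meioc*-null) in the remaining members and 42.8 and 20.2 CPM (wild type) against 16.1 and 9.92 CPM (*Meioc*-null) in the somatic gate. Over the remaining members as a whole *Rsph1* passed with the littermate block and not without it, at a log2 fold change of 1.76 (SE 0.21).

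**Figure D4:**
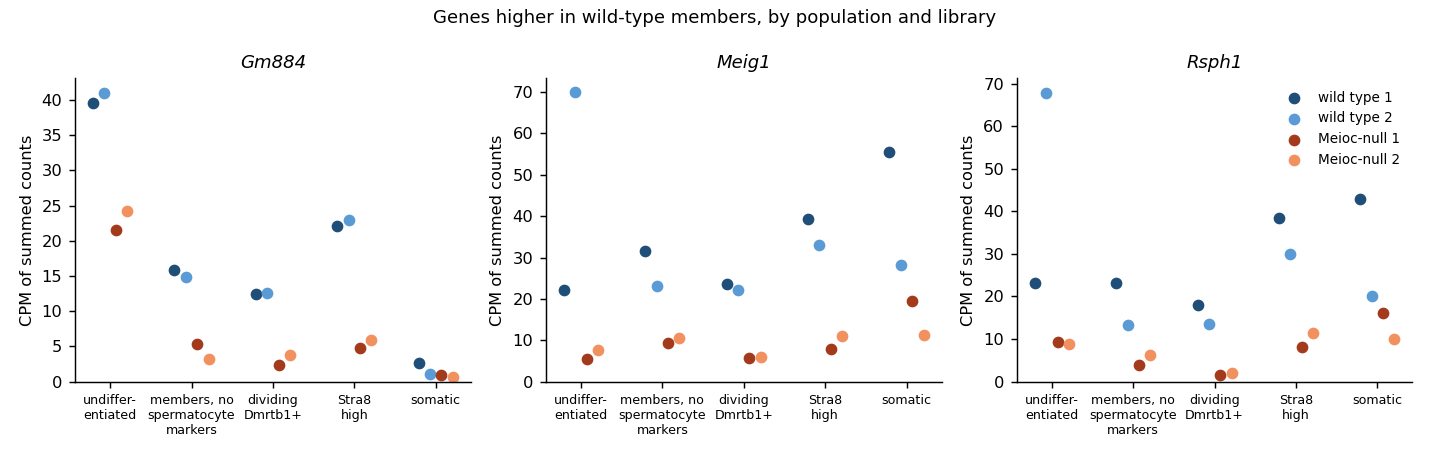
CPM of summed counts (vertical, from 0) of *Gm884*, *Meig1* and *Rsph1* in 5 populations, 1 point per library. For *Gm884* the somatic gate lies below the members of every library, while for *Meig1* and *Rsph1* the somatic gate lies above them.

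RefSeq start regions of both genes are shown because these were the genes that passed in the remaining members, and because the transcription factors E2F6 and MGA, which the study concerns, bind related letters. The windows run from 250 bases before to 50 after a start in RefSeq (GRCm38.p6), in lower case on the strand of the gene, and capitals mark a match to GCGGGAA or TTCCCGC (an E2F site) or to CACGTG (an E-box), searched on both strands.

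Gm884, chr11:103614690-103614989, minus strand: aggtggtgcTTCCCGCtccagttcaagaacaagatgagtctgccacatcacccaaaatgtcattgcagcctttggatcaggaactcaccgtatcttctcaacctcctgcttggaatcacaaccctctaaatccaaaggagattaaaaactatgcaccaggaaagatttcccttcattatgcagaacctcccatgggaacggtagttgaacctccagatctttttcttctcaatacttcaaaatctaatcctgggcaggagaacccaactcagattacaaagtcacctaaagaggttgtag
Meig1, chr2:3419080-3419379, minus strand: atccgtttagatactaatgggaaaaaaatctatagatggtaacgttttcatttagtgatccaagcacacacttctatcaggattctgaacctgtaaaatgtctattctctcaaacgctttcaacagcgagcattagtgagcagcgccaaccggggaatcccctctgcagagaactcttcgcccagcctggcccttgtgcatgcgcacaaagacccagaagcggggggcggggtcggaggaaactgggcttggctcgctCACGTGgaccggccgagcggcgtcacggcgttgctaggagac

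Both windows lie inside the genes as counted, whose 5′ ends on the minus strand are at 103621140 for *Gm884* and 3422648 for *Meig1*, so the RefSeq starts shown differ from the outer ends of the gene models. The *Gm884* window held E2F letters from base 10, and the *Meig1* window held an E-box from base 259. *Meig1* had 3 listed starts, and the other 2 windows held neither. One of these, at 3422599 to 3422898, spans the outer 5′ end of the *Meig1* gene model. Over 27025 genes with a window, 5.29% held the E2F letters and 8.09% the E-box, and among the 6251 genes tested in the remaining members that had a window the shares were 11.7% and 13.5%. Such a match is a description of letters only.

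With the littermate block, 11 genes (0.143%) were higher and 16 (0.208%) lower in wild type among the remaining members. Without the genes of the rule, 15 of 7690 were lower. Besides *Gm884*, *Meig1* and *Rsph1*, the higher genes included *Gm47283*, *Hnrnpa0*, *Ppp2cb*, *Ier5l*, *Wtip* and *Serf1*. *Tesmin* was also higher, but it is one of the pachytene markers used to remove cells, so its value is no test. *Hnrnpa0*, an RNA-binding protein, had a fold change on the log2 scale of 0.61 (SE 0.12, edgeR adjusted p = 4.1e-04). The lower genes, leaving out *Stra8*, which the selection used, were *Fos*, *Mylk*, *Egr1*, *Cox8a*, *3110009E18Rik*, *Dennd5b*, *Nr2f2*, *Tmem80*, *Dut*, *Btg2*, *Plec*, *Flna*, *Gm17494*, *Cox7b* and *Map1b*. These names were read off after the values were seen. The immediate early gene *Fos* was at 33.4 and 46.3 CPM (wild type) against 52.1 and 119 CPM (*Meioc*-null). It fell in wild type by 1.01 on the log2 scale (edgeR with block, adjusted p = 1.1e-11), to unequal degrees in the littermate pairs. Without the block *Fos* did not pass. The block leaves few degrees of freedom among 4 libraries, so such p-values rest largely on variance shared across genes. The 4 libraries had the same order for *Fos*, and for *Cox8a* below, as for the summed myoid markers given above. *Mylk* and *Flna* are known from smooth muscle cells, and the part of such cells in these differences was not tested. *Cox8a*, a subunit of cytochrome c oxidase, was at 384 and 544 CPM (wild type) against 589 and 745 CPM (*Meioc*-null), lower in wild type within each batch and without overlap.

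Genes of meiotic lists passed the threshold over all members and, in the fit without the littermate block, did not in the remaining ones. Of 12 tested genes of the synaptonemal complex and meiotic axis, the scaffold that pairs chromosomes, 9 rose and 1 fell in wild type over all members (83.3% of the list, beside 29.3% of all genes), with a median log2 fold change of 1.21. *Sycp3*, a protein of its lateral elements, was at 769 and 800.2 CPM (wild type) against 290 and 297 CPM (*Meioc*-null), with a log2 fold change of 1.57 (SE 0.17, edgeR adjusted p = 7.9e-06). *Hormad1*, which marks unpaired axes, was at 339 and 353 CPM (wild type) against 60.3 and 84.5 CPM (*Meioc*-null), with a log2 fold change of 2.39 (SE 0.19, edgeR adjusted p = 4.9e-07). After removal of the spermatocyte-marker cells 0 of 11 tested genes passed and the median was 0.19, with values from 0.02 to 0.30. There *Sycp3* was at 303 and 339 CPM (wild type) against 290 and 282 CPM (*Meioc*-null) and *Hormad1* at 82.2 and 82.7 CPM (wild type) against 60.3 and 74.7 CPM (*Meioc*-null), both a little higher in wild type with log2 fold changes of 0.19 (SE 0.14) and 0.30 (SE 0.14).

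Genes of meiotic recombination, which make and repair programmed breaks, gave 8 higher and 1 lower of 13 tested over all members (69.2%, beside 29.3% of all genes, median 0.96) and 0 of 8 in the remaining members (median 0.10). Those of the 13 not tested in the remaining members entered through wild-type spermatocyte-marker cells, so the share over all members is no test of direction. *Hsf2bp*, a partner of BRCA2 in meiosis, was at 32.1 and 28.6 CPM (wild type) against 23.0 and 19.15 CPM (*Meioc*-null) in the remaining members, with no overlap and a log2 fold change of 0.55 (SE 0.18) that did not pass. *Prdm9*, *Dmc1* and *Meiob* of this list were also among the genes used to remove cells. For the piRNA pathway, which silences transposons in germ cells, 14 of 16 tested genes were higher in wild type over all members (87.5%, beside 19.9% of all genes, median 1.25), and 0 of 16 passed in the remaining members (median 0.16). *Mael* went from 393 and 309.8 CPM (wild type) against 136 and 141 CPM (*Meioc*-null) over all members to 159 and 149 CPM (wild type) against 136 and 141 CPM (*Meioc*-null) without the spermatocyte-marker cells. *Piwil1*, the PIWI protein of pachytene cells and one of the 8 pachytene markers, went from 591 and 313 CPM (wild type) against 5.16 and 5.99 CPM (*Meioc*-null) to 24.6 and 6.42 CPM (wild type) against 5.16 and 6.03 CPM (*Meioc*-null).

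Lists of spermatocyte genes were used in part to remove cells, so their values in the remaining members are no test. Over all members 5 of 5 tested pachytene markers and 3 of 5 tested early spermatocyte genes were higher in wild type, beside 19.9% of all genes, and 1 of the latter was lower. A gene was tested when at least 25% of the cells of a genotype carried it. *Ldhc* had a UMI in 47.9 and 18.1% of wild-type but in 0.403 and 0.344% of *Meioc*-null members. Such genes entered through wild type, so these counts are no test of direction. Among remaining members 0 of 4 and 0 of 5 passed, and with the littermate block 1 of the 4 (*Tesmin*) was called. The median of the 4 pachytene markers there was 0.81, with values from 0.05 to 1.45. *Ldhc* still had a UMI in 37.8 and 7.05% of remaining wild-type members, against 0.403 and 0.346% in *Meioc*-null. In the somatic gate it was found in 22.7 and 5.77% of wild-type cells and in 0 and 0% of *Meioc*-null cells. The part of such transcripts in the small wild-type excesses among the remaining members was not tested. *Prdm9*, the histone methyltransferase that places meiotic breaks, was at 28.4 and 26.9 CPM (wild type) against 32.98 and 28.8 CPM (*Meioc*-null) there, and *Dmc1*, the meiotic strand-exchange protein, was at 46.1 and 54.4 CPM (wild type) against 46.1 and 47.0 CPM (*Meioc*-null). Both were present in members of all 4 libraries, a little lower in wild type for *Prdm9* and overlapping for *Dmc1*.

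Genes of DNA replication and cell division were taken next. Of 26 S-phase genes, 7 (26.9%) were lower and 0 higher in wild type, beside 29.3% of all genes past the threshold and 9.45% lower, with a median of −0.33. *Mcm4*, a subunit of the replicative helicase, was at 102 and 114 CPM (wild type) against 207 and 177 CPM (*Meioc*-null), with a log2 fold change of −0.68 (SE 0.15, edgeR adjusted p = 0.00348). After removal of the spermatocyte-marker cells 0 of 26 passed, the median was 0.07, and *Mcm4* was at 174 and 159 CPM (wild type) against 207 and 178 CPM (*Meioc*-null). *Pcna*, the sliding clamp of DNA polymerase, was at 335 and 324 CPM (wild type) against 294 and 313 CPM (*Meioc*-null) there, higher in wild type without passing, and *Ccne2*, a cyclin of S-phase entry, was at 147 and 139.6 CPM (wild type) against 148 and 139 CPM (*Meioc*-null), with overlap. Of 25 G2/M genes outside the rule, 4 were higher and 3 lower over all members (28.0%, beside the same 29.3%) and 0 passed in the remaining members, where the median was 0.00 and values ran from −0.11 to 0.33. *Ccna2*, a cyclin of S and G2 phase, was at 154 and 139.8 CPM (wild type) against 146 and 152 CPM (*Meioc*-null) in the remaining members, with a log2 fold change of 0.00 (SE 0.12).

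Of the sex-linked lists, 7 of 12 tested X-linked genes (median −0.47) and 4 of 5 tested Y-linked genes (median −0.56) were lower in wild type over all members, beside 9.45% of all genes. With the littermate block 12 of 12 and 4 of 5 were lower, beside 1459 of 8106 genes. With the spermatocyte-marker cells left out, 0 of 12 and 0 of 5 passed, with medians of 0.02 and −0.06. The TAF7-like gene *Taf7l*, of germ-cell transcription, was at 377 and 426 CPM (wild type) against 381 and 399 CPM (*Meioc*-null) there. *Ddx3y*, an RNA helicase gene of the Y chromosome, was at 25.9 and 31.6 CPM (wild type) against 42.7 and 51.1 CPM (*Meioc*-null) over all members and at 44.5 and 42.0 CPM (wild type) against 42.7 and 50.7 CPM (*Meioc*-null) in the remaining ones.

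DNA methylation genes had 4 lower of 5 tested over all members (80.0%, beside 9.45% of all genes, median −0.50) and 0 of 5 in the remaining members (median −0.13). *Dnmt1*, the maintenance methyltransferase, was at 209 and 292 CPM (wild type) against 426 and 361 CPM (*Meioc*-null) over all members and at 334 and 398 CPM (wild type) against 426 and 363 CPM (*Meioc*-null) in the remaining ones. *Dnmt3b*, a de novo methyltransferase of differentiating spermatogonia, was at 60.2 and 66.5 CPM (wild type) against 69.6 and 61.1 CPM (*Meioc*-null) in the remaining members, with a log2 fold change of −0.02 (SE 0.13).

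The complex of MEIOC was described through its transcripts. *Meioc* was at 184 and 168 CPM (wild type) against 146 and 141 CPM (*Meioc*-null) in the remaining members, higher in both wild-type libraries, with a log2 fold change of 0.31 (SE 0.12, edgeR adjusted p = 1). With the block its adjusted p was 0.472. Over all members *Meioc* was at 239 and 236 CPM (wild type) against 146 and 143 CPM (*Meioc*-null), with a log2 fold change of 0.87 (SE 0.15, edgeR adjusted p = 4.5e-04), and the wild-type spermatocyte-marker cells held 309.8 and 379 CPM. *Ythdc2*, an RNA helicase, was at 119 and 131 CPM (wild type) against 124 and 117 CPM (*Meioc*-null) in the remaining members and *Rbm46*, its RNA-binding partner, at 271 and 268 CPM (wild type) against 269 and 249 CPM (*Meioc*-null), and neither differed by more than the spread between libraries.

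Repressors that the study picked on these samples, so that their direction is not independent evidence, had 3 lower of 8 over all members (*E2f6*, *Mga* and *Rad21*, or 37.5%, beside 29.3% of all genes past the threshold and 9.45% lower) and 0 of 8 in the remaining members, with medians of −0.40 and −0.12. With the littermate block 5 of 8 were lower over all members, beside 1459 of 8106 genes, and 0 of 8 in the remaining members. *E2f6*, a repressor of germline genes, was at 20.2 and 25.7 CPM (wild type) against 40.4 and 36.1 CPM (*Meioc*-null) over all members, with a log2 fold change of −0.58 (SE 0.19, edgeR adjusted p = 0.0329), and at 31.8 and 35.6 CPM (wild type) against 40.4 and 36.02 CPM (*Meioc*-null) in the remaining members, with a log2 fold change of −0.15 (SE 0.16). *Mga*, the scaffold of the PRC1.6 repressor complex, was at 131 and 121 CPM (wild type) against 169.7 and 131 CPM (*Meioc*-null) in the remaining members, where wild-type replicate 1 and *Meioc*-null replicate 2 were close, and its log2 fold change was −0.23 (SE 0.13). The cohesin subunit gene *Rad21* was at 143 and 161 CPM (wild type) against 215 and 177 CPM (*Meioc*-null), with no overlap and a log2 fold change of −0.34 (SE 0.13). For the remaining members the values of the 8 ran from −0.34 to −0.06, beside a median of 0.01 over all genes tested. Of 13 genes of PRC1.6, 3 were higher and 3 lower over all members (46.2%, beside 29.3% of all genes). *Pcgf6*, its defining subunit, went from 136 and 92.5 CPM (wild type) against 6.08 and 8.78 CPM (*Meioc*-null) over all members to 8.90 and 6.65 CPM (wild type) against 6.08 and 8.70 CPM (*Meioc*-null) in the remaining ones, where 0 of 12 tested genes passed.

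Retinoic acid genes had 1 higher and 3 lower of 7 tested over all members (57.1%, beside 29.3% of all genes) and 0 of 7 in the remaining members, with a median of −0.10. *Crabp1*, which binds retinoic acid in the cytoplasm, was at 368 and 406 CPM (wild type) against 419.9 and 351 CPM (*Meioc*-null) there, and the receptor gene *Rarg* was at 16.6 and 12.5 CPM (wild type) against 13.6 and 12.5 CPM (*Meioc*-null). *Stra8* was limited by the selection and has no test. It was at 91.0 and 98.1 CPM (wild type) against 156 and 116 CPM (*Meioc*-null) in the remaining members. Among the factors of spermatogonial differentiation, *Sohlh1* was at 97.8 and 105 CPM (wild type) against 93.4 and 87.8 CPM (*Meioc*-null) and *Dmrt1* at 258 and 241 CPM (wild type) against 255 and 219 CPM (*Meioc*-null), with log2 fold changes of 0.19 (SE 0.13) and 0.10 (SE 0.13), and 0 of 8 tested factors passed.

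**Figure D5:**
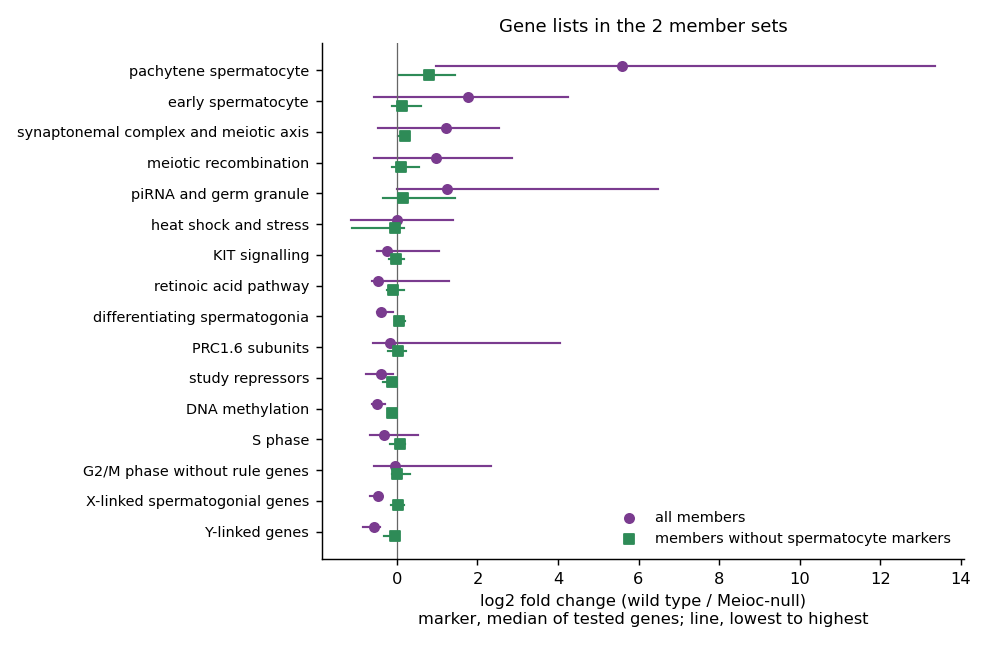
Log2 fold change (wild type over *Meioc*-null, horizontal) of the tested genes of each list, over all members (circles) and in members without spermatocyte markers (squares); the marker is the median and the line runs from the lowest to the highest gene. The medians of the meiotic lists lie between 0.96 and 5.59 over all members, and those of the synaptonemal, recombination and piRNA lists lie between 0.10 and 0.19 in the remaining members, where the pachytene list, whose genes were used to remove cells, has a median of 0.81.

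The most similar cells were those that met the rule except for a mitotic sum of 5 or more per 10000, called dividing here. They numbered 540, 472, 375 and 384, of which 34, 42, 1 and 1 were spermatocyte-marker cells. Among the dividing cells 408 of 8097 genes (5.04%) passed between genotypes, and without the spermatocyte-marker cells 5 of 8004 (0.0625%) passed, namely *Rsph1*, *Meig1*, *Gm884*, *Fabp9* and *Basp1*. *Gm884* was at 12.4 and 12.6 CPM (wild type) against 2.42 and 3.71 CPM (*Meioc*-null) there, with a log2 fold change of 2.04 (SE 0.25, edgeR adjusted p = 0.00304). The genotype effect differed between members and dividing cells for 600 of 7826 genes (7.67%), of which 559 (7.14%) had the more positive value in the members and 41 (0.524%) the more negative. Without the spermatocyte-marker cells it differed for 0 of 7602 genes by edgeR, with 252 at an unadjusted p under 0.05. DESeq2 was not run on this difference.

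Levels in the remaining members and in dividing cells without spermatocyte markers are given as a description, since the rule set the division. The S-phase sum was 4900.3 and 4702 CPM (wild type) against 4922 and 4449 CPM (*Meioc*-null) in the remaining members and 3856 and 3767 CPM (wild type) against 3856 and 3670.2 CPM (*Meioc*-null) in dividing cells, higher in the members of every library. The G2/M sum without the rule's genes was 3987 and 4327 CPM (wild type) against 4289.6 and 4019 CPM (*Meioc*-null) in the members and 7378 and 7267 CPM (wild type) against 8164 and 7633 CPM (*Meioc*-null) in dividing cells, lower in the members of every library. *Kit* was at 153 and 179 CPM (wild type) against 187 and 174 CPM (*Meioc*-null) in dividing cells, and this range overlapped that of the members given above.

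Genes were ranked by the ratio of their level in the remaining members to that in all other germ barcodes of wild type, as a description with no test. *Dmrtb1*, which chose the cells, had the highest ratio of mean CPM (3.94). *Nutm1*, a chromatin factor of germ cells, followed among genes of even level between batches (3.08), and then *Cdc6*, which loads the replicative helicase (2.58), *Tyms*, the thymidylate synthase (2.41), *Ccng1*, a cyclin induced by p53 (2.31), the transcription factor *Runx3* (2.19) and *Cdt1*, a licensing factor (2.10). The histone gene *Hist1h2ap* had a ratio of 3.44, but its level was 1172 and 4469.8 CPM (wild type) against 1023 and 3716 CPM (*Meioc*-null) in the remaining members and followed the batch in both genotypes. Over all members the same measure was led by genes of spermatocytes and spermatids instead, with *Hspb9* at 59.5 and 50.03 CPM (wild type) against 0.369 and 0.399 CPM (*Meioc*-null), and *Cmtm2b* at 84.8 and 63.8 CPM (wild type) against 0 and 0 CPM (*Meioc*-null).

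The members were also divided by their own *Meioc* transcripts, at 1 per 10000 UMIs, to ask whether the genotypes differed where more of this transcript was present. The lower level held 125 and 154 wild-type and 102 and 116 *Meioc*-null members, and the higher level 284 and 271 wild-type and 146 and 175 *Meioc*-null members. Without the spermatocyte-marker cells the wild-type numbers were 123 and 154 at the lower and 213 and 215 at the higher level, so nearly all of those cells were at the higher one. At the lower level 2 of 8081 genes (0.0247%) passed, *Fabp9* and *Sag*, and without the spermatocyte-marker cells 2 of 8077 (0.0248%) passed. At the higher level 4165 of 8219 (50.7%) passed, and without the spermatocyte-marker cells 3 of 7490 (0.0401%) passed, *Gm884*, *Meig1* and *Rsph1*. With the littermate block, 62 of 8077 (0.768%) at the lower and 37 of 7490 (0.494%) at the higher level passed without those cells. The genotype effect differed between the levels for 3443 of 7638 genes (45.1%) over all members and for 13 of 7362 (0.177%) without the spermatocyte-marker cells.

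Of these 13 genes, 6 (0.0815%) had the more positive value at the higher *Meioc* level (*Enah*, *Klf2*, *Malat1*, *Flna*, *Hist1h1e* and *Clstn1*) and 7 (0.0951%) had the more negative value (*Cox8a*, *Arhgef40*, *Atp5md*, *Ndufa4*, *Uchl1*, *Mdh2* and *Crabp1*). *Cox8a* was at 265 and 352 CPM (wild type) against 561 and 655 CPM (*Meioc*-null) at the higher level and at 558 and 758 CPM (wild type) against 622 and 839 CPM (*Meioc*-null) at the lower one, and the difference of log2 fold changes was −0.86 (SE 0.08, edgeR adjusted p = 9.9e-08). Its genotypes did not overlap at the higher level and overlapped at the lower one. *Enah*, an actin regulator, was at 167 and 148 CPM (wild type) against 150.2 and 125 CPM (*Meioc*-null) at the higher level and at 166 and 143 CPM (wild type) against 276 and 202 CPM (*Meioc*-null) at the lower one, where both *Meioc*-null libraries were the highest, and the difference was 0.79 (SE 0.10, edgeR adjusted p = 3.0e-05). *Cox8a*, *Atp5md*, *Ndufa4* and *Mdh2* encode mitochondrial proteins. The median mitochondrial share of UMIs in the remaining members was lower in both wild-type libraries (6.31 and 6.05%) than in both *Meioc*-null libraries (6.46 and 6.48%), and its part in these differences was not tested.

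The levels themselves differed in the same manner in all 4 libraries, as a description. All values of this paragraph are for members without spermatocyte markers. At the higher level wild-type members held more *Prss50*, a testis protease (4.50 times the lower level), more *Ezh2*, the methyltransferase of Polycomb repressive complex 2 (2.98 times), and more of the histone gene *Hist1h1e* (3.26 times). *Ezh2* was at 243 and 244 CPM (wild type) against 200 and 242 CPM (*Meioc*-null) at the higher level and at 82.6 and 81.1 CPM (wild type) against 94.9 and 90.3 CPM (*Meioc*-null) at the lower one. *Esx1* was at 264 and 189 CPM (wild type) against 218 and 192 CPM (*Meioc*-null) and at 104 and 77.4 CPM (wild type) against 102 and 82.4 CPM (*Meioc*-null), and *Sycp3* at 329 and 395 CPM (wild type) against 333 and 327 CPM (*Meioc*-null) and at 264 and 277 CPM (wild type) against 240.3 and 235 CPM (*Meioc*-null). The genes lower where *Meioc* was high included *Clu* (0.264 times) and *Inha* (0.222 times), which Sertoli cells express, and the summed Sertoli markers were 502 and 321 CPM (wild type) against 246 and 706 CPM (*Meioc*-null) at the lower level and 157 and 111 CPM (wild type) against 74.2 and 117 CPM (*Meioc*-null) at the higher one. Their part in the difference between levels was not tested.

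The share of members among germ barcodes was the last comparison. It was 8.39% (409 of 4876, exact 95% interval 7.62 to 9.20) and 6.01% (425 of 7066, 5.47 to 6.59) in wild type and 4.16% (248 of 5958, 3.67 to 4.70) and 5.12% (291 of 5684, 4.56 to 5.72) in *Meioc*-null. The means were 7.20% ± 1.68 (SD, n = 2) and 4.64% ± 0.677 (SD, n = 2), and the ranges did not overlap (exact permutation test, two-sided p = 0.33, the smallest that 2 against 2 allows). Without the spermatocyte-marker cells the shares were 6.89, 5.22, 4.16 and 5.08%, and the wild-type excess was 2.73 percentage points in batch 1 and 0.138 points in batch 2.

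How members varied among themselves was described without the spermatocyte-marker cells. The S-phase sum per 10000 UMIs had medians of 51.5, 47.7, 49.4 and 47.2, with the 10th percentile at 36.9, 37.1, 32.6 and 34.6 and the 90th at 63.8, 58.3, 63.6 and 57.6. For the G2/M sum without the rule's genes the medians were 39.3, 42.3, 41.2 and 41.0, with the 10th percentile at 25.8, 28.0, 26.6 and 26.03 and the 90th at 58.1, 60.7, 58.6 and 58.9. No remaining member lacked UMIs of either list. Sertoli markers were absent from 26.2 and 49.9% of wild-type and 24.6 and 51.2% of *Meioc*-null remaining members, a pattern that followed the batch.

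Many members lay close to the limits of the rule. Exactly 3 UMIs of *Dmrtb1* were held by 152, 196, 103 and 126 members, and 223, 320, 121 and 161 germ barcodes with 2 UMIs met every other limit. The median member held 4 *Dmrtb1* UMIs in each library, and the highest counts were 88, 40, 12 and 12. A mitotic sum of 4 to 5 per 10000 was found in 88, 77, 60 and 61 members, and 76, 66, 41 and 52 barcodes lay just outside at 5 to 6. For *Stra8*, 5, 7, 12 and 14 members were at 4 to 5 per 10000 and 3, 5, 11 and 11 barcodes were at 5 to 6.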

How the data were processed

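Members, gene lists and the compared populations were chosen with earlier results of these data known. The deposited values were raw UMI counts per gene and barcode, which the authors made with Cell Ranger 4.0.0 on the mm10 reference (GRCm38) from Chromium 3′ libraries of 4 mice. No unit other than counts was used, and no column of the files was left without a sample. The authors' own filter also removed doublets by score, while here no doublet was removed in the values reported, and Scrublet (scanpy 1.11.5) scores were used for an alternative.

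Barcodes were selected as described above, and counts were summed over the cells of a population in each library, since cells are not replicates. Genes detected in at least 25% of the cells of a genotype were tested with the quasi-likelihood test of edgeR 4.0.16 (TMM, R 4.3.3, limma 3.58.1), without a batch term, and p-values were adjusted by the Benjamini-Hochberg method over all genes tested. A gene was called at an adjusted p under 0.05 and an absolute log2 fold change, wild type over *Meioc*-null, over 0.1. Differences of effects had the library as a block. DESeq2 1.42.0 was an alternative. CPM is per 1000000 UMIs of the summed cells. Shares have exact Clopper-Pearson intervals from scipy 1.17.1. The fit was tested on simulated data.

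Members without spermatocyte markers were defined after seeing the data. The 10 genes of the rule stayed in the fits and in the counts over all genes, and no call of one of them is given as a result. Genes were named from the fixed lists, as the 12 with the smallest p in each direction among those called and moved alike in both batches, as the 20 with the highest ratio over other germ cells at 50 CPM or more, as the 6 in each direction for differences of effects, and as the 10 at each end between *Meioc* levels. Other names were chosen after their values were seen. A few genes that met these rules are not reported here. Of the listed symbols, 3 were not found in the files.

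The labels tie equal replicate numbers to littermate pairs. Over 7698 genes, deviations from the genotype means correlated at 0.347 between same-numbered libraries. With 2 libraries per genotype these deviations are mirror images, so the −0.347 between the others follows from that value and is no separate check. Library totals were 158291903, 190455307, 164925883 and 183606620 UMIs. Lists of target genes from the study's supplement were held only in part and were not used here.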

Additional observations from a re-analysis of the deposited data

Results flagged for a closer look

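The genotype effect differed between members and dividing cells for 600 genes by the test of the difference itself (edgeR, library as a block, adjusted p under 0.05). Log2 fold changes, wild type over *Meioc*-null, were more positive in members than in dividing cells for *Sycp2* (by 1.40), a protein of the meiotic axis, the kinase gene *Nek2* (1.46), *Sord* (2.44), *Mgll* (1.58), *Stk39* (2.08) and the condensin gene *Smc4* (0.86). They were more negative for *Tmem80* (−0.79), *Mpv17l* (−0.97), the histone gene *Hist1h2ap* (−0.62), *Gm17494* (−1.10), *Rplp2* (−0.31) and the transcription factor gene *E2f1* (−0.65). Without the spermatocyte-marker cells 0 genes passed this test, with 252 at an unadjusted p under 0.05.

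Between members with more and with fewer *Meioc* transcripts the genotype effect differed for 3443 genes by the same kind of test. The difference of log2 fold changes, higher level minus lower level, was 8.15 for *Meig1*, 5.95 for *Cox8c*, 7.71 for *Rsph1*, 4.09 for *Serf1* and 4.77 for the chaperone gene *Hspa2*. It was −1.11 for *Crabp1*, −1.44 for *Cox8a*, −1.19 for the ferritin gene *Ftl1*, −1.97 for *Arhgef40*, −1.01 for *Ndufa4* and −0.996 for *Uchl1*. Mice of both genotypes carried 1 mutated *Hspa2* allele. The higher level held 284 and 271 wild-type members, and 213 and 215 of them were left without the spermatocyte-marker cells, when 13 genes differed.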

How the results depend on the processing

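With 2 mice per genotype each count of genes rests on 4 libraries, and transcripts carried by fewer than 25% of cells were not tested. The number of genes called over all members (2378) was 3695 without a detection filter, 4503 with mitochondrial shares under 5%, 4019 with at least 5 *Dmrtb1* UMIs, and 1464 to 3246 when 1 library was left out. It was 1464, 1512, 1586 and 3246 without *Meioc*-null 1, *Meioc*-null 2, wild-type 1 and wild-type 2. It was 0 with the highest Scrublet scores removed (1124 genes at an unadjusted p under 0.05 by edgeR) and 0 with members of 8000 to 30000 UMIs (159). Leaving out cells high in 5 spermatocyte genes gave 13, and both lists 2. These settings left 65, 16, 0 and 2 spermatocyte-marker cells (Scrublet), 6, 3, 0 and 2 (depth) and 1, 2, 0 and 0 (5 genes). DESeq2 was not run at these settings.

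For the remaining members (2 genes) the count was 1 at 8000 to 30000 UMIs and 11 to 23 without 1 library. *Gm884* was called in each of these settings in which it was tested. The difference from dividing cells (600 genes) was 149 without a detection filter, 2787 with at least 5 *Dmrtb1* UMIs, 4 at 8000 to 30000 UMIs, 12 without cells high in the 5 genes, 0 without both lists (252 at an unadjusted p under 0.05), 0 with Scrublet scores removed (209) and 141 to 2559 without 1 library, the lowest without *Meioc*-null 2 and the highest without wild-type 2. In the remaining members it was 2 with doublet scores removed, 4 at 8000 to 30000 UMIs and 0 to 72 without 1 library (72 without *Meioc*-null 1, 14 without *Meioc*-null 2). Among dividing cells the count (408) was 5 without both lists.

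At the lower *Meioc* level the count (2) was 9 with detection in 10% of cells, 9 without a filter, 0 by DESeq2 (68 at an unadjusted p under 0.05), 1 with Scrublet scores removed, 0 with mitochondrial shares under 5% (519), 0 with at least 5 *Dmrtb1* UMIs (337), 1 with *Stra8* under 2 per 10000, 0 with a split at 2 per 10000 (433) and 1 to 41 without 1 library. In the remaining members it was 0 by DESeq2 (63), 1 with doublet scores removed and 2 to 91 without 1 library. At the higher level the count (4165) was 270 with Scrublet scores removed, 0 at 8000 to 30000 UMIs (222), 40 without the 5 genes, 3 without both lists and 2767 to 4321 without 1 library. In the remaining members (3) it was 0 with doublet scores removed (175), 0 at 8000 to 30000 UMIs (213) and 6 to 10 without 1 library. The difference between levels (3443) was 31 with Scrublet scores removed, 51 at 8000 to 30000 UMIs, 52 without the 5 genes, 13 without both lists and 1856 to 2888 without 1 library, the lowest without wild-type 1. In the remaining members (13) it was 3 with doublet scores removed, 67 at 8000 to 30000 UMIs and 3 to 222 without 1 library (222 and 118 without *Meioc*-null 2 and 1, 3 and 5 without wild-type 1 and 2).

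With the littermate pair as a replicate block the counts were 3358 over all members, 59 without the 5 genes, 27 in the remaining members, 70 in dividing cells without both lists, 7 and 4805 at the lower and higher *Meioc* level, 62 and 171 without the 5 genes, and 62 and 37 in the remaining members. The wild-type excess in the share of members (2.56 percentage points) was 6.18 with mitochondrial shares under 5%, 1.19 with at least 5 *Dmrtb1* UMIs and 1.37 to 3.75 without 1 library. Of 50 genes called over all members and recomputed, none changed direction in the settings in which it could be tested, but 46 of 46 tested no longer passed with Scrublet scores removed, 38 of 38 at 8000 to 30000 UMIs, 37 of 42 without cells high in the 5 genes and 40 of 42 without both lists. Settings that left out both spermatocyte lists, and every fit of the remaining members, were chosen after seeing the data. The causes of these changes were not tested.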

Other observations

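Genes of KIT signalling, of which *Kit* and its downstream kinases are members, summed to 669 and 679.7 CPM (wild type) against 707 and 681 CPM (*Meioc*-null) in the remaining members, and 0 of 8 tested genes passed. Of 11 tested G1 cyclins and inhibitors 2 were higher and 2 lower in wild type over all members (36.4%, against 29.3% of all genes), and 0 passed in the remaining ones, where the median log2 fold change was 0.10. *Ccnd2*, a cyclin of differentiating spermatogonia, was at 6.31 and 13.5 CPM (wild type) against 13.1 and 17.9 CPM (*Meioc*-null). The G1 sum was 1082 and 1049 CPM (wild type) against 1035 and 1039 CPM (*Meioc*-null), a little higher in both wild-type libraries.

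Targets of p53 gave 2 higher and 3 lower of 9 tested over all members (55.6%, beside 29.3% of all genes) and 0 of 9 in the remaining members, where their sum was 835 and 802 CPM (wild type) against 839.8 and 867 CPM (*Meioc*-null). *Ccng1* was at 104 and 112 CPM (wild type) against 119 and 123 CPM (*Meioc*-null) and *Bax*, which promotes apoptosis, at 314 and 338 CPM (wild type) against 301 and 352 CPM (*Meioc*-null). Heat shock and stress genes summed to 4917 and 4572 CPM (wild type) against 4795 and 4630.4 CPM (*Meioc*-null) in the remaining members, with overlap. Of 10 tested, 3 were higher over all members (30.0%, beside 29.3% of all genes), and 3 higher and 3 lower with the littermate block (beside 41.4% of all genes). In the remaining members 0 passed without the block, and 2 (*Fos* and *Egr1*, or 20.0%) were lower in wild type with it, beside 0.208% of all genes. *Egr1*, an immediate early gene, was at 30.8 and 40.9 CPM (wild type) against 46.6 and 83.7 CPM (*Meioc*-null).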
